A study of Mus musculus with 32 samples.

Results

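The passage of the mouse from the unfertilised egg to the early 2-cell embryo was described over 8619 genes, which are those of 54532 in the deposited table that reached an FPKM of 1 or more in at least 3 of 11 libraries. FPKM counts sequenced fragments relative to the length of a gene and to the depth of its library. The 11 libraries were 3 single wild-type (WT) eggs in metaphase II of meiosis and 8 single WT early 2-cell embryos. The series' design text gives 6 replicates for early embryos, and all 8 WT libraries so labelled were used. The choice used levels and not a difference between the stages, but a gene seen at 1 stage alone had to differ in order to be included. Of the 8619 genes, 675 reached FPKM 1 in exactly 3 libraries, and a further 945 genes missed the choice with 2 libraries. In this series WT stands for Trp53 flox/flox animals, whose Trp53 gene carries loxP sites around exons 2 to 10 and is intact, and the mice had a mixed background. Females were given gonadotropins, zygotes were taken 24 hours after hCG, the hormone that triggers ovulation, and cumulus cells were washed off. Embryos then grew in KSOM medium and were collected 28 to 32 hours after hCG, soon after the division into 2 cells. The series holds 32 libraries in all. Of these, the 3 eggs labelled Trp53 KO and the 6 early embryos labelled Trp53 MZ-KO (both parents Trp53 KO, the allele deleted with a Ddx4::Cre driver, which acts in germ cells) served for a parallel comparison, and the 6 WT late 2-cell embryos, collected at 48 hours, gave later values for the same genes.

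An egg in metaphase II makes no RNA and lives on transcripts stored while the oocyte grew. Fertilisation or activation releases it from meiotic arrest, after which stored messages are translated in turn, given longer or shorter poly(A) tails, and in part destroyed by deadenylation and decay. The embryonic genome is switched on in steps, a minor wave from the zygote to the early 2-cell embryo and a major wave in the late 2-cell embryo, and the transcription factor Dux induces a group of genes and repeats that are typical of the 2-cell stage. The libraries were primed on poly(A) tails, so a longer tail and more RNA of a gene cannot be told apart in these values, nor can a stored message that gained a tail and a newly made one. FPKM values are shares of a library, so a change in the amount of RNA per egg or embryo is not seen.

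The depth that the deposited values imply was 14858800 to 21953900 reads for the egg libraries and 7212410 to 20768400 for the early embryos. Each egg had 6088 to 6532 genes at FPKM 1 or above, and each embryo 6965 to 7990. Rank correlations between single eggs and single embryos ran from 0.518 to 0.730 over the 8619 genes, as a description across genes. Library 3 of the early embryos stood apart from the other 7, with a median rank correlation of 0.785 with them, and library 8 was the shallowest. The 15 fixed egg markers summed to between 3677 and 4470 FPKM in the eggs and to between 1139 and 1852 in the embryos. Of 20 markers of cumulus and granulosa cells none was among the 8619 genes, and their sum was 0.695 to 1.15 FPKM in eggs and 0.855 to 2.02 in embryos. Of 17 sperm markers, Prm2 and Odf2 were included and neither was called. Of 14 blood and immune markers, the globin genes Hba-a1 and Hba-a2 were included and neither was called. Hba-a1 was listed at 0 in all 3 eggs and at 0 to 4.21 FPKM in the embryos, and both globin genes were highest in library 3. None of the 10 genes of the Y chromosome was included. Of 12 markers of trophectoderm and later lineages, the keratin gene Krt18 was included and rose (log2 difference 1.13, adjusted p = 0.0019) to a median of 1.13 FPKM from a listed 0 in all eggs. How far other cells contribute to any result was not tested.

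Values were compared as log2(FPKM + 1) with limma, and calls were made where the p, adjusted over all 8619 genes by Benjamini and Hochberg, was below 0.05. By this rule 4423 genes (51.3%) differed between WT early embryos and WT eggs. In the embryos 2623 genes (30.4%) were higher and 1800 (20.9%) were lower, and the median log2 difference over all 8619 genes was 0.15. In 2146 genes (24.9%) all 8 embryos lay above all 3 eggs, and in 1439 (16.7%) all 8 lay below, so that the stages did not overlap in 41.6% of all genes. Rises of at least 2 log2 units numbered 363 and falls of that size 117. The balance of rises and falls varied with how genes entered the comparison. A gene seen in embryos alone needed 3 of 8 libraries, whereas a gene seen in eggs alone needed all 3. Accordingly 1854 genes reached FPKM 1 in at least 3 embryos and in no egg, and 141 did so in every egg and in no embryo. Such genes had to differ in order to be included, so their calls (1254 higher, 140 lower) are no evidence of a direction. Among the 6624 genes that reached FPKM 1 in at least 1 egg and at least 1 embryo, refitted alone after the data had been seen, 1339 were higher and 1593 lower. This subset is uneven the other way, as a falling gene stayed in with 1 of 8 embryos and a rising gene needed 1 of 3 eggs. Other filters kept more rises than falls, with 2063 and 1748 for a filter on the mean of the stages, 1137 and 874 at FPKM 5, and 2847 and 2006 with no filter beyond a nonzero value.

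**Figure D1:**
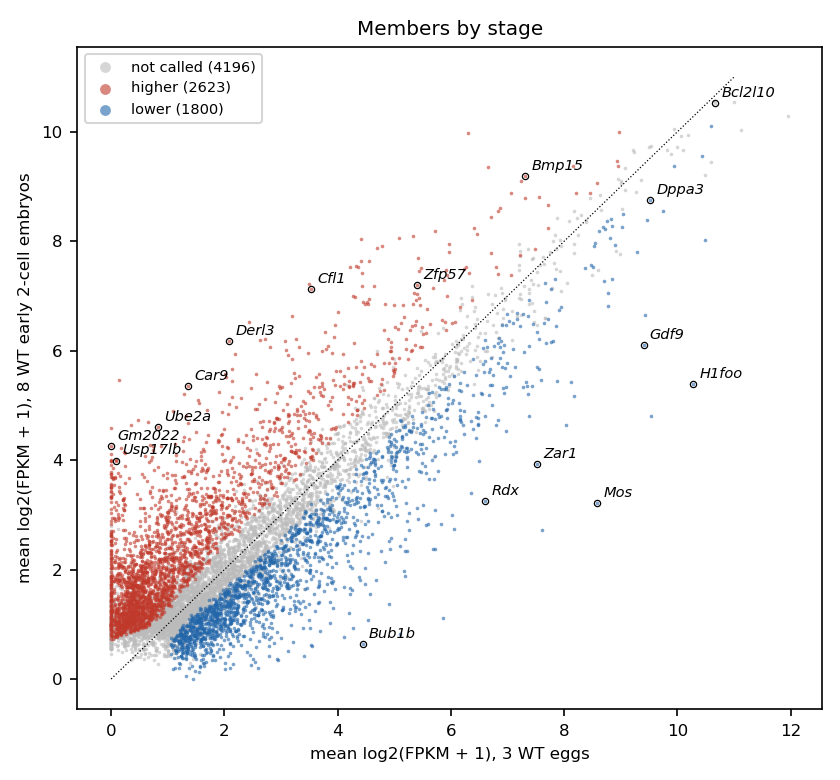
Mean log2(FPKM + 1) of each of the 8619 genes in 3 WT eggs (x axis) and 8 WT early 2-cell embryos (y axis), coloured by call, with the dotted line marking equal values. Mos, H1foo, Gdf9, Zar1 and Bub1b lie far below the line, Derl3, Car9, Ube2a and Gm2022 far above it, and Bcl2l10 near its upper end.

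The kinase gene Mos, whose product holds the egg in metaphase through the MAP kinase cascade, had the largest fall of all 8619 genes. It lies on chr4:3870657-3872105 in GENCODE M21 coordinates for build GRCm38. Its level was 290.0, 434 and 449 FPKM in the 3 eggs. In the 8 embryos it was 3.33 at the lowest, 9.53 at the median and 13.3 at the highest, so that every embryo lay far under every egg (log2 difference -5.37, SE 0.34, adjusted p = 4.6e-07). Bub1b, which encodes the spindle checkpoint kinase BubR1, was at 27.3, 15.7 and 20.7 FPKM in eggs and at no more than 0.845 in any embryo (log2 difference -3.81, SE 0.17). Fbxo5, encoding the inhibitor Emi1 of the anaphase-promoting complex, fell from 26.8, 31.5 and 21.7 to a median of 6.58 FPKM (adjusted p = 6.8e-04). Other genes of M-phase control went the opposite way. Mapk3, the gene of ERK1 at the end of the Mos cascade, rose from 7.85, 8.40 and 7.73 FPKM in the eggs to 33.7 at the lowest, 44.6 at the median and 46.7 at the highest in embryos (log2 difference 2.23, SE 0.14, adjusted p = 4.6e-07). Fzr1, the activator of the anaphase-promoting complex in interphase, rose to a median of 6.41 FPKM (log2 difference 1.80), and the phosphatase gene Cdc25b to 5.08 (log2 difference 1.70). The kinases Aurora C, the germ cell form, and Aurora B, the form of dividing somatic cells, moved in opposite directions. Aurkc fell from 7.88, 7.07 and 9.47 FPKM to a median of 2.48, and Aurkb rose from 0.126, 0 and 0.179 to a median of 2.29, with no overlap between eggs and embryos in either gene. Ccnb1, the gene of cyclin B1, was not called, at 152, 143 and 222 FPKM in eggs and 114 to 198 in embryos (95% interval of the log2 difference -0.52 to 0.28). Pttg1, the gene of securin, was also not called (95% interval -0.74 to 0.02), but was called lower without egg library 3 (adjusted p = 0.029). Of 29 genes for meiotic arrest and M-phase control, 9 rose (31.03%), 11 fell (37.9%) and 9 were not called, with a median log2 difference of -0.12 against 0.15 over all 8619 genes.

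**Figure D2:**
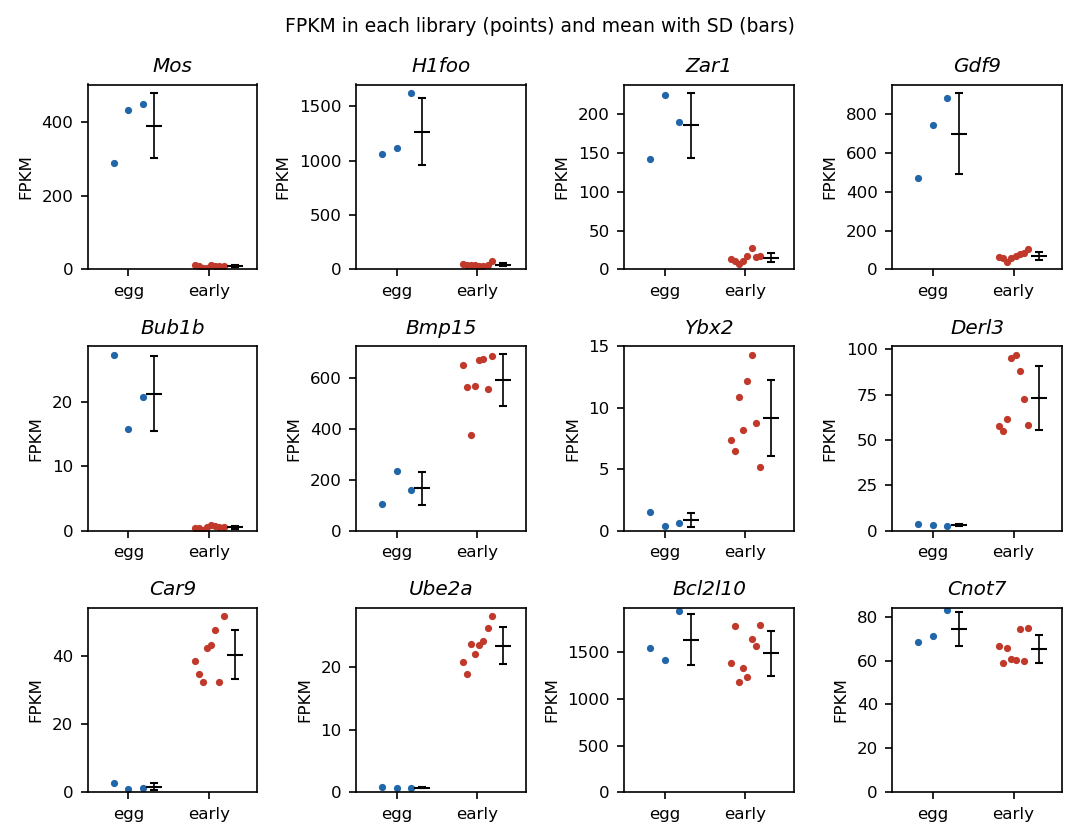
FPKM of 12 genes in each library (y axis from 0, points), with the mean and SD of the group beside them, for 3 WT eggs and 8 WT early 2-cell embryos. Eggs and embryos do not overlap in the top row, in Bub1b, Bmp15, Ybx2, Derl3, Car9 or Ube2a, whereas Bcl2l10 and Cnot7 overlap.

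Genes that define the oocyte included large rises and large falls. H1foo, the linker histone of the oocyte (chr6:115944938-115950236), was at 1062, 1120.0 and 1622 FPKM in eggs, behind Omt2b, Tcl1 and Bcl2l10 alone among protein-coding genes. In embryos it ranged from 28.2 to 76.8 with a median of 40.01 (log2 difference -4.90, SE 0.27, adjusted p = 1.9e-07). Gdf9 and Bmp15 encode the pair of TGF-beta family ligands by which the oocyte acts on its follicle cells. Gdf9 was at 470.2, 744 and 883 FPKM in eggs and at 39.996 to 105, median 66.9, in embryos (log2 difference -3.30, adjusted p = 2.4e-06). Bmp15 was at 106, 235 and 159.9 FPKM in eggs and at 377 to 688, median 611, in embryos (log2 difference 1.88, adjusted p = 5.6e-05). All embryos were thus below all eggs for Gdf9 and above all eggs for Bmp15. The late embryos had 11.96 FPKM of Bmp15 on average, far under both. Nobox and Lhx8, homeobox genes that drive oocyte growth, also rose (Nobox to a median of 50.2 FPKM, log2 difference 1.502, and Lhx8 to 7.45, log2 difference 1.35). The egg coat genes Zp2 (log2 difference 0.96, adjusted p = 0.0037) and Zp3 (log2 difference -0.83, adjusted p = 0.007) moved in opposite directions. Of 21 genes for the egg coat, oocyte growth and secreted factors, 7 rose (33.3%, against 30.4% of all genes), 8 fell (38.1%, against 20.9%) and 6 were not called (median -0.14). Of the 15 egg markers, 2 rose and 9 fell.

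Among 9 genes for fertilisation and egg activation, 5 rose (55.6%) and 3 fell (33.3%), with a median of 0.56. Izumo1r encodes Juno, the egg receptor for the sperm protein Izumo1. It rose from 6.21, 5.83 and 5.59 FPKM to between 12.8 and 37.7, median 26.4 (log2 difference 1.93, adjusted p = 5.1e-05). Astl, the gene of ovastacin, the protease of the cortical granules that hardens the egg coat, fell from 2.25, 4.07 and 6.07 FPKM to a median of 1.02 (log2 difference -1.29).

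The most abundant maternal transcripts other than H1foo were not called, and 95% intervals of their log2 differences, unadjusted for the number of genes, bound what could have been missed. Bcl2l10, a Bcl-2 family gene stored in the oocyte, was at 1552, 1417 and 1944 FPKM in eggs and at 1184, 1480.4 and 1799 (lowest, median, highest) in embryos, with an interval of -0.49 to 0.22 for the log2 difference. Tcl1, an activator of the kinase Akt, gave -0.46 to 0.28 and the ring finger gene Rfpl4 gave -0.48 to 0.20. Oog3, an oocyte gene of the Prame family, gave -0.61 to 0.12. Omt2b, an oocyte gene with 3003, 1743 and 1633 FPKM in eggs and 1257 to 1687 in embryos, gave -0.86 to -0.04 and was called lower without egg library 3 (adjusted p = 0.034) and with median-ratio scaling (adjusted p = 0.041). Their means in the late embryos, which were not tested here, were 15.0 FPKM for Bcl2l10, 140.3 for Tcl1, 8.00 for Rfpl4 and 188 for Oog3, although that of Omt2b was 1379.8. A protein complex below the membrane of the egg, the subcortical maternal complex, is needed by the embryo to pass the 2-cell stage. Of 16 genes of this complex and of the oocyte Nlrp family, 12 were not called, 1 rose and 3 fell. Nlrp4f rose from 42.5, 46.9 and 58.2 FPKM to a median of 89.7 (log2 difference 0.85). Padi6 fell from 25.6, 59.9 and 55.7 to a median of 21.5 FPKM (log2 difference -1.21, adjusted p = 0.0093), a call that was lost without egg library 2 (adjusted p = 0.056) or egg library 3 (adjusted p = 0.051). The complex genes Nlrp5 (95% interval 0.06 to 1.31) and Ooep (95% interval -0.01 to 1.19) were not called, but both were called higher without early library 3 (adjusted p = 0.0097 and 0.022). The sign of the median of these 16 genes, -0.08, changed to 0.01 with scaling on abundant genes.

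Genes that store messages and control their translation included large changes in both directions. Zar1, a factor that gathers maternal mRNA at the mitochondria of the oocyte, was at 142, 225 and 190.1 FPKM in eggs and at 7.13 to 28.1, median 14.9, in embryos (log2 difference -3.59, SE 0.32). Dazl, an RNA-binding protein that promotes translation in germ cells, fell to a median of 48.3 FPKM from 118, 107 and 85.8 (log2 difference -1.03). Ybx2 encodes MSY2, a protein that binds and protects most stored mRNA. Its level was 1.53, 0.439 and 0.672 FPKM in eggs and 5.202 at the lowest, 8.46 at the median and 14.3 at the highest in embryos, all above the eggs (log2 difference 2.42, adjusted p = 2.5e-05). Eif4e1b, the form of the cap-binding protein found in oocytes, rose from 11.3, 13.2 and 12.1 to a median of 61.0 FPKM (log2 difference 2.27). In the late embryos Eif4e1b averaged 0.917 FPKM. Of 19 genes in this list 7 rose (36.8%) and 3 fell (15.8%), with a median of 0.11. For the enzymes that shorten and destroy mRNA, 4 of 29 rose (13.8%) and 10 fell (34.5%), with a median of -0.27. Btg4, the adaptor that brings the CCR4-NOT deadenylase to maternal mRNA, was not called, at 133, 100.1 and 128 FPKM in eggs and 80.1 to 128 in embryos (95% interval -0.65 to 0.02). Without early library 2, whose level was the highest, Btg4 was called lower (adjusted p = 0.037). Cnot7, a catalytic subunit of that complex, was not called (95% interval -0.47 to 0.09). Cnot6l, another catalytic subunit, fell (log2 difference -0.49, adjusted p = 0.017), a call that was lost without egg library 1 (adjusted p = 0.096) or with scaling on abundant genes (adjusted p = 0.059). Pabpn1l, an adaptor that works with Btg4, fell from 72.8, 126 and 74.4 FPKM to a median of 30.98, and Edc4, a scaffold of the decapping enzyme, fell from 21.4, 17.6 and 18.95 to 6.65. Dcp2, the decapping enzyme itself, rose to a median of 6.92 FPKM from 2.35, 4.68 and 2.98, and the embryonic poly(A)-binding protein gene Pabpc1l rose from 0.189, 0.261 and 0.499 to 4.02.

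Among protein-coding genes with conventional symbols, the largest rises outside the genes induced by Dux were those of Derl3 and Car9. Derl3 (chr10:75893413-75895941), part of the channel that moves misfolded proteins out of the endoplasmic reticulum (ER), was at 3.93, 3.46 and 2.45 FPKM in eggs. In embryos it was at 54.8, 67.0 and 97.0 (lowest, median, highest), for a log2 difference of 4.10 (SE 0.22, adjusted p = 1.6e-07). Car9 (chr4:43506966-43513729), a carbonic anhydrase at the cell surface that is a textbook target of the hypoxia factor HIF1, was at 2.85, 0.915 and 1.31 FPKM in eggs and at 32.4, 40.6 and 51.7 in embryos (log2 difference 3.99, SE 0.22). A few genes with clone-based symbols rose further, up to a log2 difference of 5.34 for Gm8332. Their upstream sequences, from RefSeq for build GRCm38.p6, are shown because the 2 genes stand for pathways with known response elements. The capitals in Derl3 mark the ER stress response element, which was searched as CCAAT and CCACG with any 9 bases between them. In Car9 they mark ACGTG, the core bound by HIF1. Both marked matches lie on the opposite strand and so are printed as reverse complements. The bases of Derl3 also hold ACGTG, which is left in lower case.
Derl3, the 250 bases before its RefSeq start, chr10:75893148-75893397, plus strand: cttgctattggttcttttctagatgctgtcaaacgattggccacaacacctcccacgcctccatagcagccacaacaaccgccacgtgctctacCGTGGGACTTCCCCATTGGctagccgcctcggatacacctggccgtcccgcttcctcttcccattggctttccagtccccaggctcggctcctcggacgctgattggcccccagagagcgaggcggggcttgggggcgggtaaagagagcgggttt
Car9, 30 bases that end 2 bases short of its RefSeq start, chr4:43506994-43507023, plus strand: tcctatttccgatgCACGTacagcccgtcc
The marked match of Derl3 began 156 bases and that of Car9 18 bases before the RefSeq start. Searched on both strands of 250 bases, the ER stress element was found in 35 of 27025 promoters of the reference (0.130%), in 7 of the 1308 promoters of protein-coding genes that rose (0.535%) and in 6 of the 1052 of those that fell (0.570%). ACGTG was in 18.5% of all promoters, 24.0% of those of rises and 26.9% of those of falls. For both motifs the share was lower in rises than in falls. No test was made, and a match is a description of the sequence alone.

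Other genes of the same pathways were called in either direction. Of 26 genes for ER stress and ER-associated degradation, 7 rose (26.9%, against 30.4% of all genes) and 12 fell (46.2%, against 20.9%), with a median of -0.42. Besides Derl3, the rises included Atf4, a transcription factor of the stress response, from 11.6, 12.97 and 10.7 FPKM to a median of 47.7 (log2 difference 1.90), and its target Ddit3, encoding CHOP, to a median of 10.0 (log2 difference 2.31). Dnajb9, an ER chaperone, rose to a median of 4.70 FPKM, with 17.6 in library 3. Ern1, the ER stress sensor IRE1, fell from 4.68, 4.97 and 4.95 to a median of 1.35 FPKM (log2 difference -1.39). The ER chaperone genes Dnajc3 (log2 difference -1.81) and Sdf2l1 (log2 difference -1.77) also fell. Of 20 genes for the hypoxia response, glycolysis and pyruvate use, 7 rose (35%) and 5 fell (25%), both near the shares of all genes (median 0.36). The glycolytic enzyme gene Tpi1 rose from 3.86, 2.64 and 3.70 FPKM to 34.7, 42.6 and 50.1 (lowest, median, highest, log2 difference 3.31, SE 0.15). Aldoa rose to a median of 16.7 FPKM and Pkm to 3.09. Gapdh, in contrast, fell from 2.01, 3.13 and 2.52 to a median of 0.995 FPKM, as did Hif1a itself (log2 difference -0.88) and Egln1 (log2 difference -0.78), whose product marks it for destruction. Ldhb, the lactate dehydrogenase abundant in eggs, was not called (95% interval -0.52 to 0.50).

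The other large rises of protein-coding genes, by the rule for named genes, were Ube2a, Cfl1, Samd10, Oser1, Rnf181, Arhgdia, Atp6v1g1 and Mfsd2a. Ube2a, an E2 enzyme that ubiquitinates histone H2B, was at 0.825, 0.785 and 0.717 FPKM in eggs and 18.9 to 28.2 in embryos (log2 difference 3.78, adjusted p = 3.2e-08). Cfl1, the actin-severing protein cofilin, was at 12.3, 9.71 and 9.93 FPKM in eggs and 81.7 to 203 in embryos (log2 difference 3.60). On the log2 scale Arhgdia rose by 3.49, and Atp6v1g1, a subunit of the proton pump of lysosomes, by 3.43. Rnf181, an E3 ubiquitin ligase, rose by 3.56, Oser1, named for its response to oxidative stress, by 3.57, Samd10 by 3.801 and the lipid transporter gene Mfsd2a by 3.37. Ube2a, Atp6v1g1 and Mfsd2a were under FPKM 1 in every egg, so they were included through embryos alone and had to differ. Among genes named elsewhere, this also holds for Aurkb, Cdk4, Dnmt3l, Krt18, Nelfe, Pabpc1l and Pkm. The coefficient of variation (SD over mean, in percent) across the 8 embryos was 12.5% for Ube2a, 23.2% for Cfl1 and 17.6% for Car9. Over the 118 protein-coding genes with conventional symbols outside the Dux list that rose by 2 log2 units or more, its median was 21.5%. In 72 of these 118, all 6 late embryos lay below all 8 early embryos, and in 13 all lay above. Over all 8619 genes the numbers were 3004 and 1836, but the 118 genes had been chosen for high early values. Car9 averaged 0.567 FPKM in late embryos, Samd10 0.591, Atp6v1g1 1.64 and Tpi1 6.67, whereas Cfl1 was still at 119.

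The remaining large falls were Rdx, Alg10b, Psma7, Sumo2, Zcrb1, Smc3 and Jkamp. Rdx encodes radixin, which ties actin to the cell membrane. It was at 89.1, 92.7 and 108 FPKM in eggs and 5.53 to 14.3 in embryos (log2 difference -3.36). Smc3, a subunit of the cohesin ring that holds sister chromatids together, was at 9.67, 11.6 and 11.02 FPKM in eggs and at no more than 0.976 in any embryo (log2 difference -2.95, adjusted p = 6.6e-08). Sumo2, a ubiquitin-like modifier, was at 10.5, 9.90 and 8.61 FPKM in eggs and at no more than 0.522 in embryos (log2 difference -2.99). Bub1b, Smc3 and Sumo2 thus belonged to the 141 genes at FPKM 1 in every egg and in no embryo. Alg10b, an enzyme of protein glycosylation, fell by 3.21 on the log2 scale, Zcrb1, a splicing factor of the minor spliceosome, by 2.98, and Jkamp, an ER membrane protein, by 2.91. Reads of Sumo2, Cfl1, Eef1a1 and other genes with many processed copies can be shared with those copies, so their levels are uncertain.

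Dux and the genes it induces had the largest share of rises among the lists other than cell type markers. Of 39 genes 27 rose (69.2%, against 30.4% of all 8619) and limma called 0 lower, and at an unadjusted p below 0.05 the numbers were 34 and 0. The median log2 difference was 2.46. A gene under FPKM 1 in every egg had to reach it in 3 embryos to be included, so these counts are a description. Of all 1854 genes included in that way, 1254 were called higher, a share close to the 69.2% of the list. For such genes the 30.4% over all genes is not a like comparison. Duxf3, the annotated Dux gene (chr10:58229979-58232675), was at 0.105, 0 and 0 FPKM in eggs and at 1.15, 1.89 and 5.198 in embryos (log2 difference 1.74, SE 0.32, adjusted p = 7.8e-04), and averaged 0.00767 FPKM in late embryos. Zscan4f, of a family of zinc finger genes that act at telomeres, was at 0.0110, 0.217 and 0.0610 FPKM in eggs and ranged from 2.08 to 103 in embryos around a median of 13.2 (log2 difference 3.64, SE 0.81). Gm2022, of the eIF1A-like family, was listed at 0 in every egg and ranged from 2.69 to 156 FPKM with a median of 21.8 (adjusted p = 0.0034). Usp17lb, a deubiquitinase gene, was at 0.161, 0.0390 and 0 FPKM in eggs and at 4.31 to 56.6 in embryos (log2 difference 3.90). Zfp352, listed at 0 in every egg, reached a median of 6.70 FPKM (log2 difference 2.84). Not every gene of the list followed. Tcstv1 was at 24.3, 29.96 and 21.95 FPKM in eggs and at 0.0690, 16.05 and 47.2 in embryos and was not called (95% interval -3.82 to 0.67). Members of these families are near-identical copies and can share reads, so values of single copies are uncertain.

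The level of the Dux-induced genes varied widely from embryo to embryo. The median coefficient of variation was 96.0% over the 22 genes of the list that rose by 2 log2 units or more, beside 21.5% over the 118 other protein-coding genes described above. Apart from Duxf3, 32 of the 38 genes had their highest value in library 3, and 22 had their lowest in library 1. Their summed level was 1136 FPKM in library 3 and 90.9 in library 1, and 96.9 to 458 in the other 6. Duxf3 did not follow this order. It was lowest in library 3, at 1.15 FPKM, and highest in library 4, where it was 5.198 FPKM and the sum of the other 38 genes was 96.9. Library 3 also had the most genes at FPKM 1 (7990) and the lowest median rank correlation with the eggs (0.531), and library 1 had the highest (0.721). Collection times of single embryos within the 28 to 32 hours are not given in the sources used here. The part of library makeup in these differences was not tested. Without libraries 3 and 8 of the early embryos, 30 of the 39 genes rose and the median was 2.24. All 6 late embryos were above all 8 early embryos in 3 of the 22 genes, and in the other 19 the stages overlapped. In Usp17lb the late mean was 225 FPKM.

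**Figure D3:**
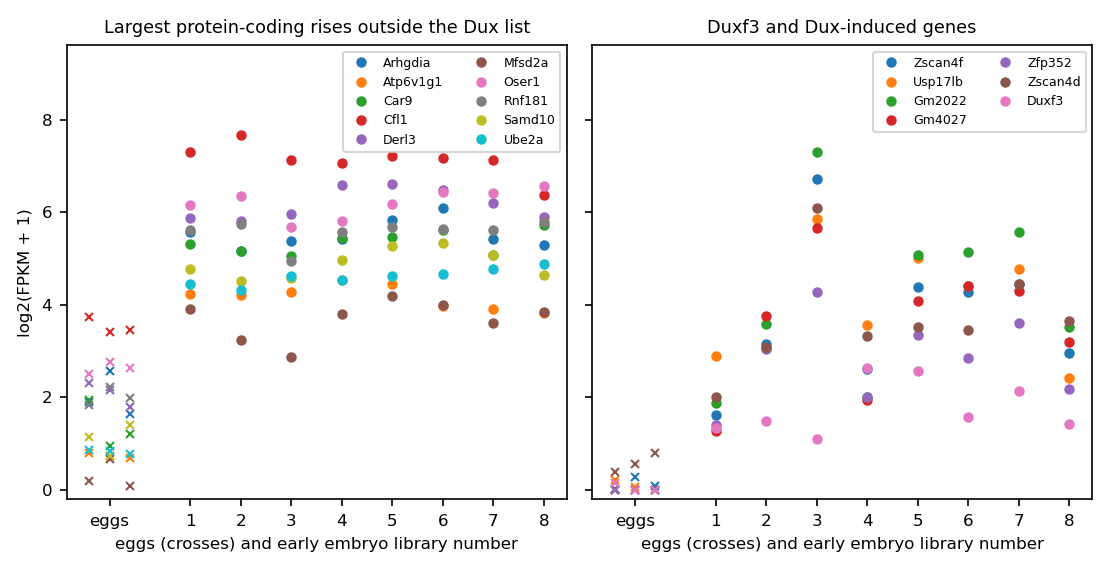
Levels as log2(FPKM + 1) (y axis) in the 3 eggs (crosses) and in each of the 8 WT early 2-cell embryos (points, by library number), for the 10 largest rises outside the Dux list among protein-coding genes with conventional symbols and no overlap between stages (left) and for Duxf3 with 6 Dux-induced genes (right). The left genes vary from embryo to embryo, Mfsd2a from 6.33 to 17.2 FPKM and Cfl1 from 81.7 to 203, over narrower ranges on this scale than Gm2022, from 2.69 to 156. The right genes other than Duxf3 all peak in library 3.

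Promoters of the Zscan4 and Usp17l families were alike within each family, and stretches of 4 of them are shown because they carry the same motif. The capitals mark TATAAA, the TATA box sequence, and all stretches come from RefSeq for build GRCm38.p6 and run 5′ to 3′ along the strand of the gene.
Zscan4c, chr7:11005661-11005720, plus strand: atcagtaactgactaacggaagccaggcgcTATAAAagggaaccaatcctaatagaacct
Zscan4d, chr7:11166184-11166243, minus strand: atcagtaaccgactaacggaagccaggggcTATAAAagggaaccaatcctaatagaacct
Usp17ld, chr7:103252586-103252645, minus strand: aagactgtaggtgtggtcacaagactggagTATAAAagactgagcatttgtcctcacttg
Usp17lb, chr7:104842597-104842626, minus strand: acaaaactgaagTATAAAaggctgagcatt
The marked match began 54 bases before the RefSeq start in Zscan4c, 65 in Zscan4d, 110 in Usp17ld and 31 in Usp17lb. Its position thus differed between genes, and whether it serves as a TATA box was not tested. The stretch of Zscan4c was the same in Zscan4f at all 60 bases, and matched that of Zscan4d at 58. Searched on both strands of the 250 bases before the RefSeq start, TATAAA was in 7 of the 16 Dux-list genes that rose and had a promoter in the table (43.8%), all 7 from these 2 families. The share was 14.3% of all 27025 promoters, 8.79% of those of protein-coding genes that rose and 7.13% of those that fell. The box CCAAT was in 14 of the 16 (87.5%), 48.0% of rises and 41.2% of falls. The sequence TGATT, any base, AATCA, which mouse Dux binds, was in 0 of the 16 and in 10 of all promoters (0.0370%), which says only that these letters are not in that window. Copies of a family are not independent of each other.

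For the lists on transcription and chromatin, the shares over all genes were 30.4% for rises and 20.9% for falls. These rises include 1254 genes seen in embryos alone, which had to differ in order to be included. Of the 6624 genes seen at both stages, 1369 were called higher and 1660 lower in the same fit. That subset is uneven the other way. A list with fewer rises or more falls than all genes therefore need not stand out. Of 22 homeobox, Krueppel-like and other early embryonic transcription factors, 5 rose (22.7%) and 9 fell (40.9%), with a median of -0.10. In the Obox family of oocyte homeobox genes, Obox2 fell from 905, 602 and 605 FPKM to a median of 105 (log2 difference -2.77) and Obox1 from 94.9, 59.9 and 61.8 to 24.1 (log2 difference -1.43). Obox5 was at 640.3, 483 and 502 FPKM in eggs and 379 to 654 in embryos and was not called. Junb, an AP-1 factor of the early response to growth signals, fell from 6.66, 7.13 and 6.31 FPKM to a median of 0.150 (log2 difference -2.60). Of 47 genes for RNA polymerase II, general factors and elongation, 6 rose (12.8%) and 17 fell (36.2%), with a median of -0.15. Tbp, the TATA-binding protein, rose from 3.24, 2.77 and 3.33 FPKM to a median of 6.84 (log2 difference 0.91), and Nelfe, a subunit of the factor that pauses the polymerase, to 2.66 from 0.174, 0.396 and 0.113. Taf8, a subunit of TFIID (log2 difference -1.95), and Gtf2h5, a subunit of TFIIH (log2 difference -1.88), fell, and Taf9 was not called (95% interval -0.41 to 0.35).

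Of 39 chromatin and DNA methylation regulators, 5 rose (12.8%) and 19 fell (48.7%), with a median of -0.31. Dnmt1, the enzyme that maintains DNA methylation, fell from 6.42, 14.7 and 11.6 FPKM to a median of 3.00 (log2 difference -1.51, adjusted p = 0.0018), and Tet3, the enzyme that oxidises methylcytosine in the zygote, from 11.6, 11.9 and 10.9 to 4.33 (log2 difference -1.18). Dppa3, which shields the maternal genome from Tet3, fell from 859, 709.7 and 649 FPKM to a median of 409.8. Trim28, the corepressor that guards imprinted and transposon sequences, fell from 7.70, 4.14 and 5.91 to a median of 0.669 FPKM (log2 difference -1.93). Its partner Zfp57, which binds imprinting control regions, rose instead, from 36.7, 46.1 and 41.4 FPKM to 51.0, 159 and 206 in embryos (log2 difference 1.79), lowest in library 3. Dnmt3l, the cofactor of de novo methylation, rose to a median of 4.74 FPKM from 0.498, 0.729 and 0.807, and Suv39h1, a histone H3K9 methyltransferase, to 9.81 from 0.891, 2.07 and 2.59. Of 32 histones and histone chaperones, 7 rose (21.9%) and 6 fell (18.8%), with a median of 0.02 that turned to -0.08 with median-ratio scaling. H3f3a and H3f3b encode the same protein, histone H3.3. H3f3a rose from 5.34, 3.91 and 3.11 FPKM to a median of 19.3 (log2 difference 1.99), while H3f3b was not called at 277, 249.7 and 351 FPKM in eggs and 196 to 352 in embryos. Hist1h2aa, a histone H2A gene of germ cells, fell from 65.1, 61.3 and 66.8 FPKM to a median of 15.1.

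Lists for the machinery of the cell held genes called in both directions, as 51.3% of all genes were called, and no test compared a list with other genes. The limit on the shares over all genes, given above for transcription and chromatin, holds for every list set against them. Of 46 DNA replication genes, 10 rose (21.7%) and 16 fell (34.8%), with a median of -0.23. The cell cycle kinase gene Cdk4 rose from 0, 0.529 and 0.522 FPKM to a median of 4.49, and Orc6, of the origin recognition complex, fell from 105, 79.0 and 78.1 to 26.4. Of 39 core spliceosome and SR protein genes, 5 rose (12.8%) and 16 fell (41.03%), with a median of -0.43. Sf3b3 rose to a median of 2.59 FPKM, and Crnkl1 fell from 7.61, 9.003 and 8.96 to a median of 1.16 (log2 difference -2.01). Of 35 heat shock proteins and J-domain chaperones, 8 rose (22.9%) and 13 fell (37.1%), median -0.19, among them Hsp90aa1, which fell from 107, 78.7 and 74.2 FPKM to a median of 20.9, and Dnajc2, a chaperone at the ribosome, which rose to 17.5 from 3.14, 2.92 and 2.62. Of 34 proteasome genes 9 rose (26.5%) and 12 fell (35.3%), with a median of -0.10. Psma7, a core subunit, had the largest of these falls, from 319.9, 310.5 and 239 FPKM to 13.4, 36.5 and 73.4 in embryos (log2 difference -3.01). Translation initiation and elongation factors had 12 rises and 12 falls among 36 (33.3% each, median -0.14). Eef1a1, the main elongation factor, rose from 1.05, 0.919 and 0.918 FPKM to between 8.70 and 11.7 (log2 difference 2.47), and Eif3e fell from 7.51, 4.58 and 4.47 to a median of 0.766 FPKM. Of 31 genes of the nucleolus and ribosome biogenesis, 6 rose (19.4%) and 10 fell (32.3%), with a median of -0.11. Nhp2 (log2 difference 2.10) and Dkc1 (log2 difference -1.84), which encode 2 proteins of the same box H/ACA particle, moved in opposite directions. Of 81 cytosolic ribosomal protein genes only 29 met the level for inclusion, 5 of them rose (17.2%) and 3 fell (10.3%), with a median of -0.11. The nuclear genes of the respiratory chain and ATP synthase had 11 rises (22.4%) and 8 falls (16.3%) among 49, with a median of 0.27.

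**Figure D4:**
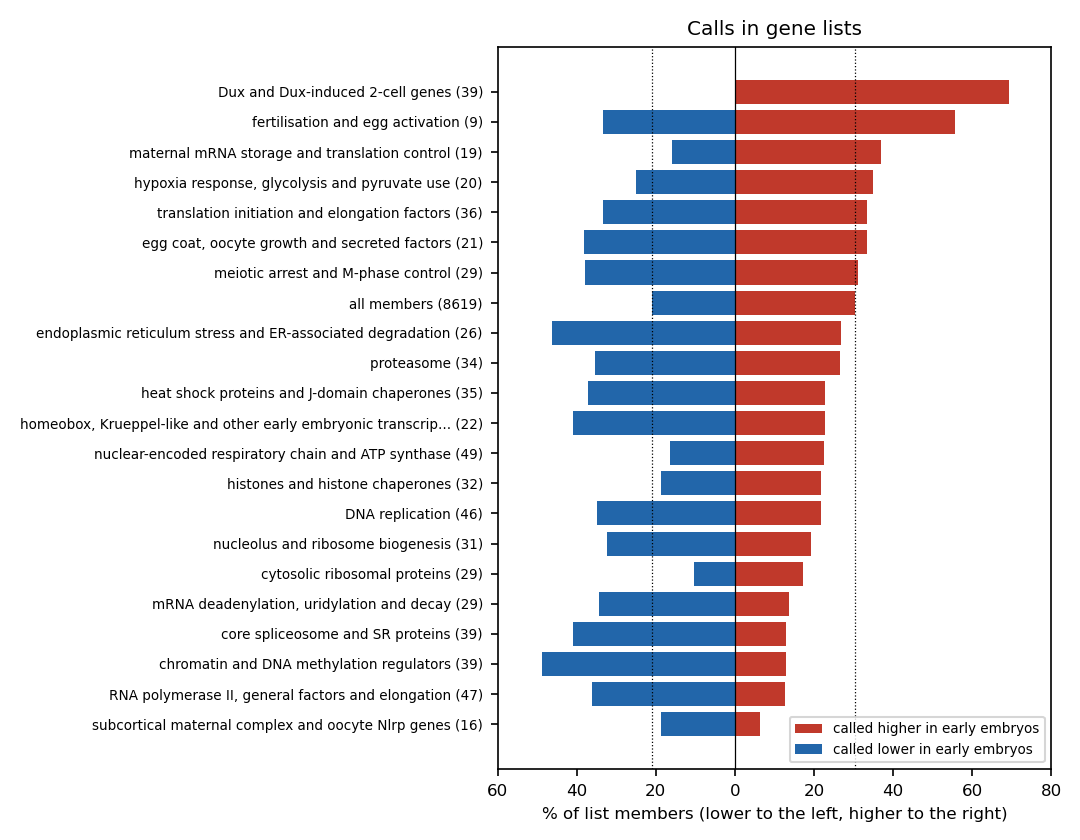
Share of the genes in each list (y axis, number of tested genes in brackets) that were called lower (left, blue) or higher (right, red) in WT early 2-cell embryos than in WT eggs, in percent. The dotted lines mark the shares over all 8619 genes, 20.9% and 30.4%. Of the lists plotted, which leave out the cell type markers, the Dux list alone has rises and no falls. A gene seen in embryos alone had to be higher there to be included. Of all 1854 such genes 1254 were called higher, so for them the 30.4% line is not a like comparison. Of the 6624 genes seen at both stages, 1369 were called higher and 1660 lower.

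Rises and falls differed in the kinds of gene they held, as a description across genes. Genes seen in embryos alone had to be higher there, and they were not counted apart by kind or span. How far they make up the shares below was not tested. Among 359 lincRNA genes 43.5% rose and 11.1% fell, and among 164 unprocessed pseudogenes 44.5% rose and 4.88% fell. Of the 491 antisense genes 36.5% rose and 17.3% fell. Protein-coding genes, 5606 in all, rose in 30.7% and fell in 23.9% of cases. In these, the median genomic span was 12950 bp for rises, 21525 bp for falls and 15520.5 bp for genes not called, with medians of 7, 9 and 8 exon blocks. Of the protein-coding genes spanning over 2000 to 5000 bp, 40.4% rose and 16.03% fell, whereas of those over 50000 bp 24.1% rose and 30.96% fell. The deposited values divide by the whole genomic span, so genes with long introns have small values and more of them miss the level for inclusion. When values were recomputed per exon length, 15599 genes met the rule, and of these 4585 rose and 2455 fell. Of the 8619 genes, 4525 overlap another annotated gene, and without strand their reads cannot be told apart. Of the genes named above this holds for Alg10b, Aldoa, Btg4, Car9, Cdc25b, Cdk4, Cfl1, Cnot7, Crnkl1, Ddit3, Dkc1, Dnajb9, Dnmt1, Dnmt3l, Edc4, Eef1a1, Fzr1, Gapdh, H3f3a, Hif1a, Hist1h2aa, Jkamp, Junb, Nhp2, Nlrp5, Obox1, Obox2, Odf2, Orc6, Oser1, Pabpn1l, Pkm, Rnf181, Samd10, Sf3b3, Suv39h1, Taf9, Tbp, Tet3, Tpi1, Trim28 and Ube2a. Of 4085 genes that overlap none, 1263 rose and 830 fell.

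The same contrast was fitted over the same 8619 genes in 3 eggs labelled KO and 6 early embryos labelled MZ-KO, which share no library with the WT contrast. Trp53 itself was at 8.45, 9.81 and 6.33 FPKM in the eggs labelled KO, within the range of the 6.16, 7.16 and 10.3 FPKM of the WT eggs, and at 0.311 to 1.11 FPKM in the early embryos labelled MZ-KO against 2.60 to 9.29 in WT. Exons outside the deleted part also count toward these values. These levels alone do not show whether the eggs labelled KO carry the deletion, which was not tested. Directions drawn from them are those of the libraries so labelled. Here 4025 genes (46.7%) were called, 2435 higher (28.3%) and 1590 lower (18.4%). Of the 2623 WT rises, 1915 (73.0%) were also called higher in this material, which is 78.6% of its rises, and 3 were called lower. Of the 1800 WT falls, 1156 (64.2%) were also called lower, which is 72.7% of its falls, and 11 were called higher. In the material labelled KO the log2 differences were -5.99 for Mos, -4.11 for H1foo, 3.49 for Derl3, 3.73 for Car9 and 1.08 for Bmp15. Some genes named above were called in WT and not here. Among them were Junb (-2.60 in WT, 0.79 here), Aurkb (1.78 and 0.56) and Krt18 (1.13 and 0.11). For these 3 genes the difference between the 2 contrasts was not called either. For the Dux list 20 of 39 genes rose and the median was 1.65.

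A test of the difference between the 2 contrasts called 31 genes (0.36%), 20 (0.232%) with a more positive change in the material labelled KO and 11 (0.128%) with a more negative one. The splicing factor gene Crnkl1 fell in WT (log2 difference -2.01) and rose in the material labelled KO (log2 difference 0.72), a difference of 2.73 log2 units (SE 0.32, adjusted p = 6.8e-04). Trp53 gave -1.98 (SE 0.42, adjusted p = 0.043). The snoRNA host gene Gas5, whose span overlaps another gene (2.58, adjusted p = 0.0011) and the ER protein gene Cnpy4 (2.92, adjusted p = 9.98e-04) had the smallest adjusted p after Crnkl1. Of the 31 genes, Gas5 among them, 14 lie on chromosome 1, which holds 560 of the 8619 genes. The count changed with single eggs. It was 7 without egg 2 labelled KO, 8 without egg 3 labelled KO, 63 without egg 1 labelled KO, and 14, 19 and 12 without WT egg 1, 2 and 3.

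**Figure D5:**
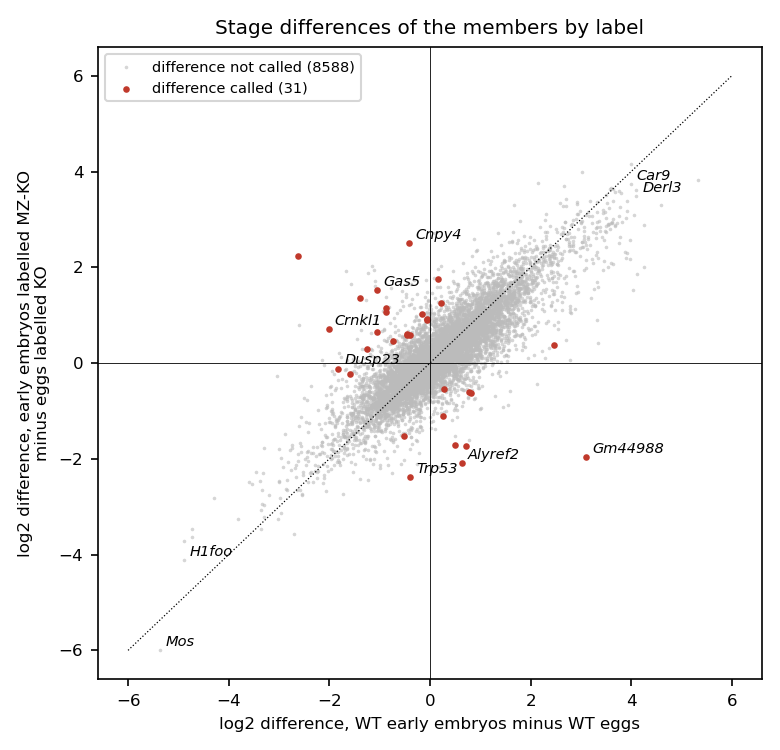
Log2 difference between early 2-cell embryos and eggs for each of the 8619 genes in WT libraries (x axis) and in libraries labelled KO and MZ-KO (y axis), with the dotted line marking equal values. Red points are the 31 genes whose difference between the contrasts was called, among them Crnkl1, Trp53 and Cnpy4.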

How the data were processed

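RNA of single mouse eggs and embryos was measured by SMART-seq, with cDNA primed on poly(A) tails. The authors deposited 1 table of FPKM values for 54532 genes and 32 libraries. The submitters' processing notes name TopHat2, DESeq, DESeq2 and mm10, without versions or roles. Low values in the 11 WT libraries were whole multiples of 1 read (within 0.1 read, genes up to 2000 bp) in at least 99.4% of cases when length was taken as genomic span and in at most 82.7% with exon length, so the deposited FPKM divide by span. GENCODE M21 held 54495 of the gene identifiers, and 27 date-like symbols were restored from it. Columns name a group and no replicate number, so libraries are numbered in column order. Where embryos share a mother is not given in the sources used here, and p-values measure the spread between these single eggs and embryos.

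Groups were compared with limma 3.58.1 in R 4.3.3 (trend and robust moderation, statmod 1.5.0) on log2(FPKM + 1) over all 8619 genes, with Benjamini-Hochberg adjustment. A fold change on this scale understates that of low genes. Tables and plots were made with Python 3.11.15, numpy 2.4.6, pandas 2.3.3 and matplotlib 3.10.9. On data simulated for the WT contrast of 8619 genes, 100 genes were changed by log2 1 and 100 by log2 2. Of these, 58% and 93% were recovered, and 6.79% of calls were false. The simulation changed no other genes, raised low ones among the changed genes to a set minimum, and used the embryo spread for both stages. In the data 51.3% of genes were called, so these rates need not hold for the real contrast. Alternatives covered pseudocount, filter, scaling, moderation, gene sets, length and leaving out each library.

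The genes and lists were chosen with earlier results of these data known. Genes named with values followed 5 rules: the 12 largest rises and 12 largest falls without overlap among called protein-coding genes with conventional symbols and spans of at least 200 bp; up to 4 rises, 4 falls and the most abundant uncalled gene of each list; a preset set; the 5 most abundant protein-coding genes of each stage; and the 5 least changed at FPKM 100 or more. Promoters came from the RefSeq table for GRCm38.p6. Those named outside these rules, Usp17ld, Zscan4c, Hba-a2, Prm2, Gm8332, Gas5 and Cnpy4, were chosen after their values were seen.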

Additional observations from a re-analysis of the deposited data

Results flagged for a closer look

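Among 118 genes examined across the 8 WT early embryos, 19 had 1 library whose gap to the nearest other exceeded Dixon's 95% limit. By chance 5% of genes would do so if values were normally distributed and genes independent. The values here are FPKM and some genes are near-identical copies, so the count is a description. Library 3 was the distant one in 11 of the 19. It was high for Zscan4f (103 FPKM), Zscan4d (67.5), Gm2022 (156), Gm4027 (49.2), Dnajb9 (17.6), Nhp2 (12.5), Srsf7 (10.7) and Junb (1.31), and low for Bmp15 (377), Zfp57 (51.0) and Rnf181 (29.7). The same library had the summed Dux list of 1136 FPKM and the median rank correlation of 0.785 with the other early embryos, both far from the other 7. Library 8, the shallowest, was high for H1foo (76.8 FPKM), Smc3 (0.976), Taf9 (178) and Crnkl1 (3.52). Library 2 was high for Tcstv1 (47.2 FPKM) and Btg4 (128) and low for Dnajc2 (9.87), and library 1 was high for Eif3e (1.81).

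The stage difference itself differed by label for Crnkl1, by 2.73 log2 units (limma, adjusted p = 6.8e-04), with opposite directions in WT and in the libraries labelled KO and MZ-KO. It also differed for Trp53, by -1.98 (limma, adjusted p = 0.0435), where the eggs labelled KO had levels in the range of WT eggs.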

How the results depend on the processing

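The number of genes called between WT early embryos and eggs was 4423. It was 7040 of 15599 with values per exon length (4585 higher, 2455 lower), 2011 of 3400 at a filter of FPKM 5, 2932 of 6624 for genes seen at both stages, and 2093 of 4085 without overlapping genes. These alternatives test other numbers of genes. Exon length, both stages and the overlap were added after seeing the data, as were leaving out early libraries 3 and 8 (4540) and scaling on abundant genes (4351). Leaving out 1 library gave 3648 to 4528. Median-ratio scaling moved the median of all genes from 0.15 to 0.06 and gave 2439 higher and 2096 lower. The contrast of libraries labelled KO gave 3082 to 4053 calls with 1 library left out. The contrast between labels called 31 genes, 32 with median-ratio scaling and 7 to 63 with 1 library left out, against 1063 at an unadjusted p below 0.05. Genes without overlap between stages numbered 3641 to 4148 with 1 library left out. For 118 named genes, 1757 of 1770 values kept direction and call, 9 gained a call, 4 lost it and none changed direction. The median of the Dux list was 4.57 with a pseudocount of 0.1, with 34 of 39 genes called higher. No paired analysis was possible because the columns carry no replicate number. Library 8 of the early embryos was the shallowest of the 11, with 7212410 reads behind its scale, and low values there rest on the fewest reads.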
